A study of Danio rerio with 8 samples.

Results

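Chaperones and foldases, the proteins that help other proteins to reach and keep their shape, were examined in zebrafish heart ventricles 2 weeks after surgery. Members were chosen by name alone: every probe set with a single platform symbol that begins as a heat shock protein, a J protein (dnaj), a subunit of the cytosolic chaperonin (cct, tcp1), a co-chaperone (ahsa, stip1, bag, unc45), a prolyl isomerase (fkbp, ppia to ppih), a disulfide isomerase (pdia) or a chaperone of the endoplasmic reticulum, ER (calr, canx, hyou), with fkbp5 left out. This gave 107 probe sets for 93 genes of the 8793 genes with a single symbol on the array. By textbook location, 57 of these work in the cytosol or nucleus, 25 in the ER and 10 in mitochondria, and tcp11l2 matched only by its letters and is not a chaperone. The placing of dnajb12a, dnajc18, dnajc4 and pdia7 is the least certain. The naming rule and the compartments were set with earlier results of these data known. All 93 genes were tested, since no filter on low values was used. A further 3 probe sets that carry several symbols, of hsp90aa1, hsp70 and fkbp8, were left out.

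RNA from whole ventricles of Danio rerio was hybridised to 8 Affymetrix arrays, 4 labelled control and 4 labelled resected. In both groups an array holds a pool of 50 ventricles taken 2 weeks after surgery, and the labels give neither the genotype, strain, sex or age of the fish nor what surgery the controls had. The comparison asks which of these transcripts differ in the injured ventricle. Values are expression on a log2 scale after RMA, a change is the mean of resected pools less that of control pools, and a gene passed the test at an adjusted p under 0.05 (limma, Benjamini-Hochberg over 15502 probe sets).

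In the cytosol, HSP70 with its J proteins binds unfolded stretches of new or damaged proteins, HSP90 completes the folding of kinases and receptors, and the ring-shaped chaperonin TRiC folds actin and tubulin. In the ER, secreted and membrane proteins are folded by the HSP70 BiP and the HSP90 GRP94, by the lectin chaperones calnexin and calreticulin, and by isomerases that rearrange disulfide bonds or turn proline bonds. Collagen, rich in proline, depends on several ER prolyl isomerases, and heart muscle depends on chaperones that assemble and repair myosin and actin filaments.

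The genes that rose in resected ventricles were 7 isomerases of the ER and 1 mitochondrial J protein, and most cytosolic genes did not pass in either direction. Of the 25 ER genes, 7 rose and 0 fell, which is 28% against 5.05% of all genes called higher, and 22 of the 25 changes were above 0 with a median of 0.48, against a median of -0.04 and 41.2% of changes above 0 over all 8793 genes. Of the 57 cytosolic and nuclear genes, 0 rose and 3 fell, 5.26% against 3.0% of all genes called lower, with a median of -0.07. Counted by limma's unadjusted p under 0.05, which 12.7% of all genes met in each direction, the cytosol had 0 higher and 9 lower genes (15.8% lower) and the ER 16 higher and 0 lower (64% higher). Among the 10 mitochondrial genes 1 rose and 2 fell (median 0.06). Over all 93 genes 8 rose, 5 fell and 80 did not pass, and by probe set 8 of 107 rose and 5 fell, where 4.28% of all probe sets were called higher and 2.57% lower. The difference between compartments is given as counts and medians and was not tested. In pooled whole ventricles, fewer cells of a type and less RNA per cell cannot be told apart.

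These counts depended on single pools. Averaged over the ER genes, control replicate 2 was the highest of its group, and without it 13 ER genes rose and 0 fell, where 7.37% of all genes were higher and 4.95% lower. Without control replicate 1 or 4 or resected replicate 4 the ER count was 4, and without resected replicate 2 it was 3. Over the whole array 380, 273, 355 and 265 genes were higher without control replicate 1, control replicate 4, resected replicate 4 and resected replicate 2, in place of 444. The ER count was 0 for lower calls in each of these cases. The cytosolic count was 2 higher and 5 lower without control replicate 2, and the number lower was 1 without resected replicate 2 or 3, where 106 and 115 genes of the whole array were lower in place of 264. Over all members the count higher ranged from 3 without resected replicate 2 to 17 without control replicate 2, with 4 when control replicate 4 was left out and 5 when control replicate 1, or resected replicate 1, 3 or 4, was left out. The count lower was 3 without control replicate 1 and 2 without resected replicate 2 or 3.

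**Figure D1:**
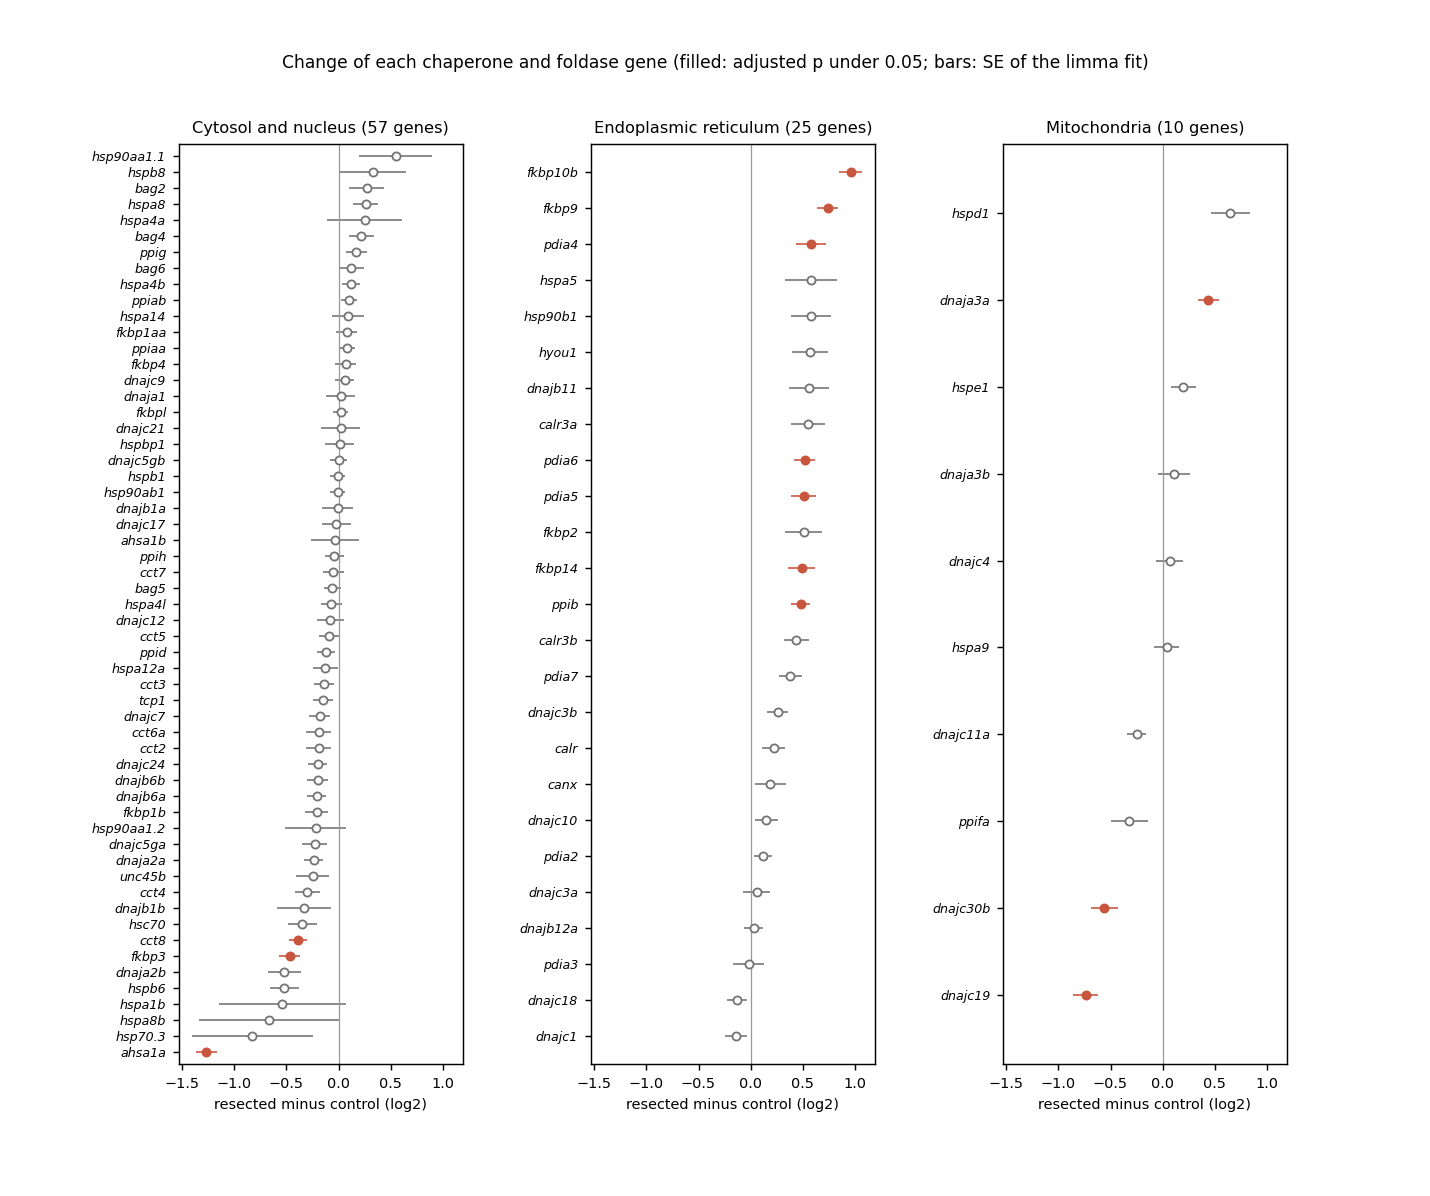
Change of each chaperone and foldase gene, resected minus control in log2 units on the x axis, with genes on the y axis in panels for the cytosol and nucleus, the ER and mitochondria; bars are the SE of the limma fit and filled points passed the test. Most ER points lie to the right of 0, with fkbp10b at 0.96, and the cytosolic points scatter around 0 down to ahsa1a at -1.27.

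The largest increases of all members were those of the ER prolyl isomerase genes fkbp10b and fkbp9. The gene fkbp10b encodes FKBP65, which in mammals assists the folding of collagen. Its level was 4.96, 5.08, 5.36 and 5.21 in control replicates 1 to 4 and 5.97, 6.22, 6.01 and 6.23 in resected replicates 1 to 4. All 4 resected pools lay above the highest control pool. The means were 5.15 ± 0.17 and 6.11 ± 0.14 (SD, n = 4), a rise of 0.96 ± 0.11 (SE), or 1.94-fold (adjusted p = 0.000665, limma). The related ER protein encoded by fkbp9 was at 7.44, 7.55, 7.43 and 7.24 in control pools and at 8.19, 7.99, 8.10 and 8.32 in resected pools. Its groups were also apart, and it rose by 0.74 ± 0.10, or 1.67-fold (adjusted p = 0.00192, limma). Both calls held under all 19 alternative settings tried.

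Cyclophilin B, the product of ppib, turns proline bonds in collagen and takes part in the complex that modifies its prolines. The level of ppib was 10.18, 10.24, 10.42 and 10.12 in control pools and 10.57, 10.77, 10.72 and 10.81 in resected pools. The lowest resected pool stood above the highest control pool, and the rise was 0.48 ± 0.09, or 1.39-fold (adjusted p = 0.0122, limma). For fkbp14, whose human counterpart also serves collagen, control pools were at 5.04, 4.92, 5.40 and 4.89 and resected pools at 5.50, 5.76, 5.39 and 5.58. Here control replicate 3 lay just above resected replicate 3, so the groups overlapped. It rose by 0.49 ± 0.13 (adjusted p = 0.0433, limma), a call that ended without any array other than control replicate 3 (adjusted p = 0.0605 to 0.129). The small ER isomerase gene fkbp2 was at 0.51 ± 0.18 (adjusted p = 0.123), with overlapping groups. Of these 5 ER prolyl isomerases 4 passed, or 80% against 5.05% of all genes called higher. The median change of the 5 was 0.51.

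Of 6 genes named for protein disulfide isomerases, 3 rose and 0 fell, or 50% higher against 5.05% of all genes. The product of pdia6 is an oxidoreductase that also binds BiP. Its level was 7.07, 7.35, 7.01 and 6.93 in control pools and 7.57, 7.71, 7.52 and 7.63 in resected pools. The groups did not overlap, and the rise of 0.52 ± 0.10, or 1.43-fold, passed (adjusted p = 0.0142, limma). The call was lost on leaving out resected replicate 2 (adjusted p = 0.053) and without moderation of the variance (adjusted p = 0.0678). For pdia4, which encodes ERp72, control pools were at 6.28, 6.56, 6.58 and 6.27 and resected pools at 6.69, 7.37, 6.96 and 7.02. Resected replicate 2 was the highest and resected replicate 1 stood only a little above the controls. The rise was 0.58 ± 0.14, or 1.5-fold (adjusted p = 0.0356, limma), and the call was lost on leaving out control pool 1 or 4, or resected pool 2, 3 or 4 (adjusted p = 0.0709 to 0.101).

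The probe set that stands for pdia5 read 6.49, 6.87, 6.75 and 6.48 in control pools and 7.13, 7.18, 6.98 and 7.35 in resected pools. Its groups were apart, with a rise of 0.51 ± 0.12, or 1.43-fold (adjusted p = 0.0261, limma). Leaving out control pool 1 or 4, or resected pool 1, 2 or 4, ended that call (adjusted p = 0.0577 to 0.0774). The gene has a pair of other probe sets, at 0.26 ± 0.07 (adjusted p = 0.0675) and, at a low level, -0.15 ± 0.09 (adjusted p = 0.318), and with the mean of all its probe sets pdia5 was at 0.21 (adjusted p = 0.136). Among the disulfide isomerases that did not pass, pdia7 was at 0.38 ± 0.11 (adjusted p = 0.0729, and 0.0331 without control replicate 3), pdia2 at 0.12 ± 0.09 and pdia3 at -0.02 ± 0.15. The product of pdia3, ERp57, works on glycoproteins held by calnexin and calreticulin.

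**Figure D2:**
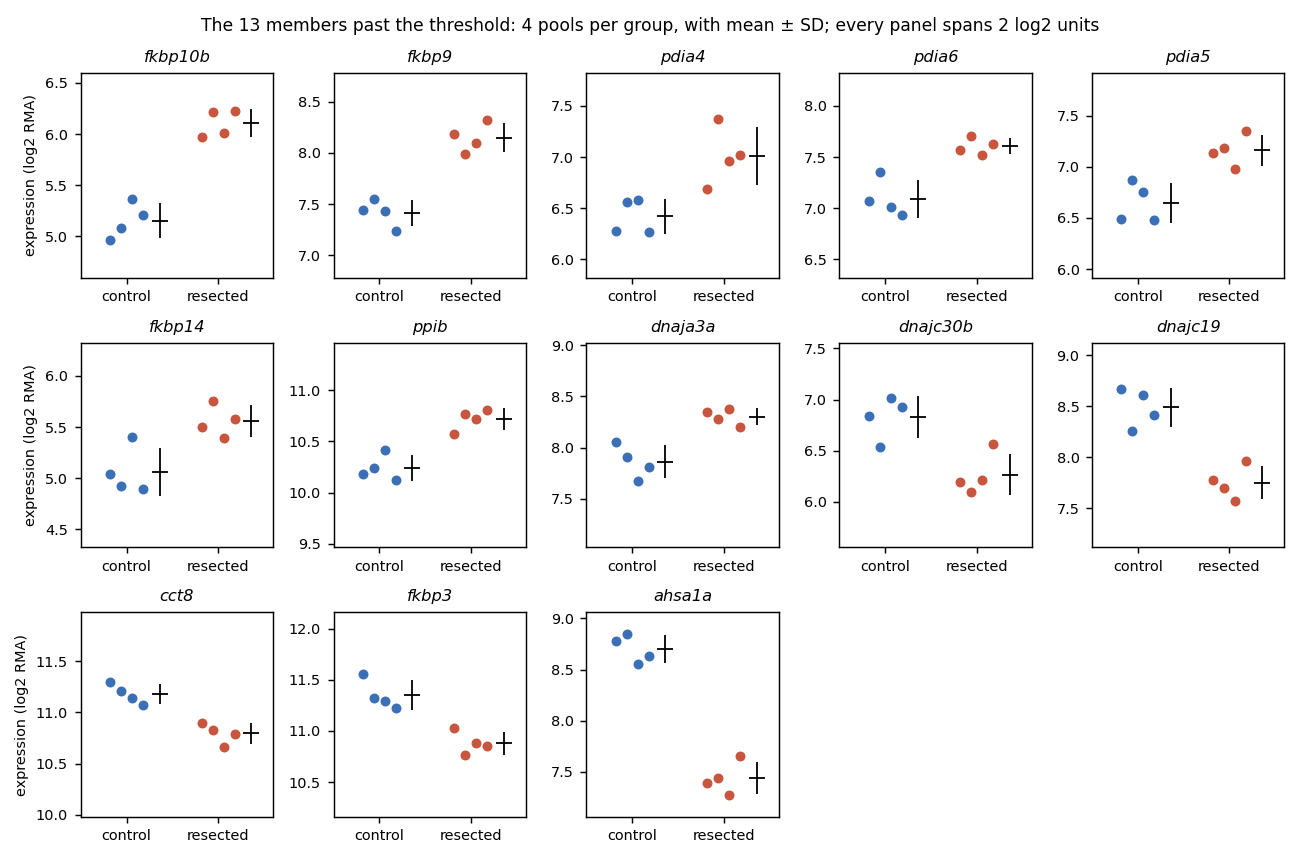
Expression (log2 RMA, y axis) of the 13 members that passed the test, with a point for each of 4 control and 4 resected pools and the mean ± SD beside them; every panel spans 2 log2 units. The groups are apart for 11 of them, and overlap for fkbp14 and dnajc30b.

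The lectin chaperones hold glycoproteins in the ER until they are folded. None of the 4 measured passed by limma, though 2 were higher by the unadjusted p, or 50% against 12.7% of all genes. For calr3b, a calreticulin gene, control pools were at 4.48, 4.53, 4.52 and 4.21 and resected pools at 4.69, 5.18, 4.77 and 4.88. The level of calr3b, like that of calr, was below the array medians of 5.78 to 5.82 in every pool. All resected pools lay above the controls, and the change of calr3b was 0.44 ± 0.12 (adjusted p = 0.054). Its paralog calr3a was at 0.55 ± 0.16 (adjusted p = 0.0723), calr at 0.22 ± 0.11 (adjusted p = 0.267) and the calnexin gene canx at 0.19 ± 0.15 (adjusted p = 0.478). In the last of these, control replicate 2 read 10.23 beside 9.58 to 9.61 for its group and 9.79 to 10.11 in resected pools. Without control replicate 2 canx was at 0.35 (adjusted p = 0.0483), calr3a at 0.69 (0.0169) and calr3b at 0.48 (0.0492), so that 3 of the 4 passed. That is 75%, where 7.37% of all genes were higher without that pool.

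The ER forms of HSP70 and HSP90 had changes as large as those of the disulfide isomerases that rose, with a wider spread, and did not pass. For hspa5, which encodes BiP, control pools were at 8.94, 8.79, 8.30 and 8.02 and resected pools at 8.84, 9.36, 9.59 and 8.56. Control replicate 1 lay above 2 resected pools, and the change of 0.58 ± 0.25 did not pass (adjusted p = 0.203, limma). The GRP94 gene hsp90b1 read 6.88, 7.71, 7.13 and 6.77 in control pools and 7.42, 7.77, 7.66 and 7.96 in resected pools. Only control replicate 2 reached the resected range, and the change was 0.58 ± 0.19 (adjusted p = 0.102, and 0.78 with an adjusted p = 0.008 without that pool). The gene hyou1 encodes the large ER relative of HSP70 that exchanges the nucleotide of BiP, and it was at 0.57 ± 0.17 (adjusted p = 0.0762). Its control replicate 2, at 8.41, stood apart from 7.55 to 7.67 in the other controls, and without that pool the change was 0.77 (adjusted p = 0.00168).

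Some J proteins of the ER hand unfolded clients to BiP, and of the 7 measured in the ER family 0 passed in the limma test. By the unadjusted p 2 were higher, or 28.6% against 12.7% of all genes. The gene dnajb11, for a soluble partner of BiP, was at 0.56 ± 0.19 (adjusted p = 0.108), with 7.71 to 7.92 in resected pools against 7.33, 7.86, 6.94 and 6.87 in control pools. Control replicate 2 again lay within the resected range, and without it dnajb11 was at 0.76 (adjusted p = 0.00458). The paralogs dnajc3a and dnajc3b encode a co-chaperone that in mammals also inhibits a kinase of the stress response, and they were at 0.06 ± 0.13 and 0.26 ± 0.10 (adjusted p = 0.822 and 0.153). The latter was at 0.34 (adjusted p = 0.0434) without control replicate 2. The disulfide reductase gene dnajc10 was at 0.15 ± 0.11, the membrane-anchored dnajb12a at 0.03 ± 0.09, and dnajc18 and dnajc1 were at -0.13 ± 0.10 and -0.14 ± 0.11.

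**Figure D3:**
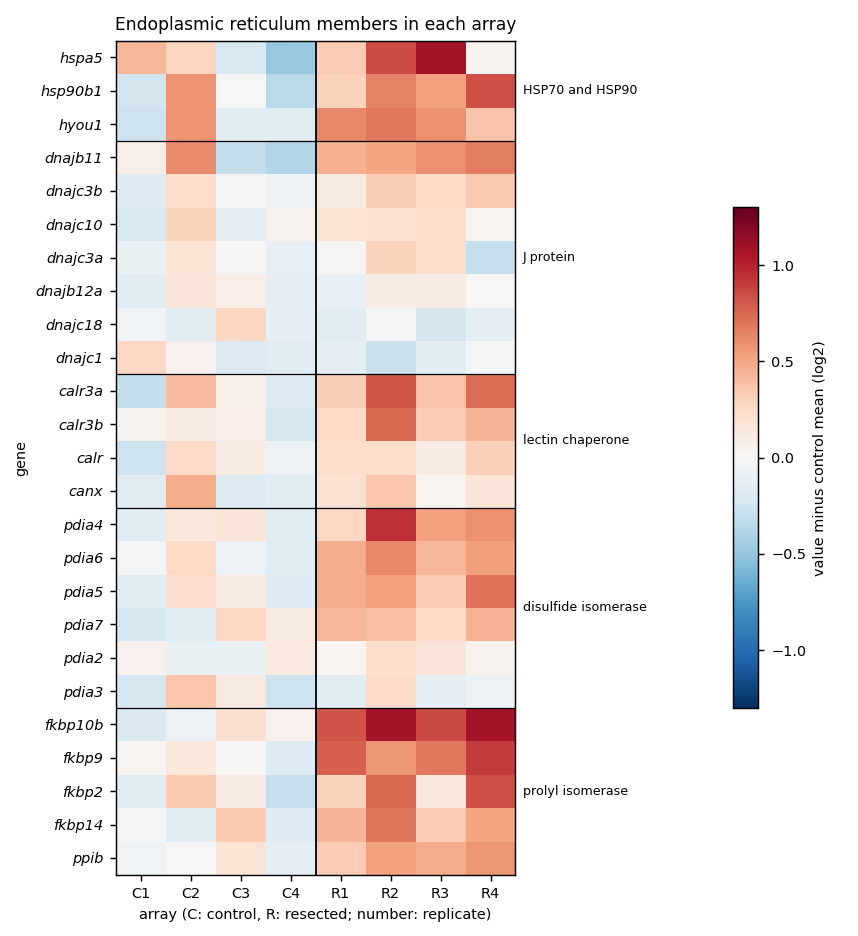
Value of each of the 25 ER genes (y axis, by family) in every array (x axis; C control, R resected) as the difference from the control mean of the gene in log2 units, red for higher and blue for lower. The resected columns are red for most isomerases and for hyou1 and hsp90b1, and the column of control replicate 2 is red for hsp90b1, hyou1, dnajb11 and canx.

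Averaged over the 25 ER genes, control pools stood at -0.09, 0.20, 0.03 and -0.15 from the control mean and resected pools at 0.28, 0.48, 0.33 and 0.39. Control replicate 2 was the nearest to the resected pools. Over the 57 cytosolic genes the control pools stood at 0.16, 0.16, -0.13 and -0.19 and the resected pools at -0.11, -0.06, -0.13 and -0.16. The resected pools lay close together within the range of the controls. The same mean over all genes was between -0.02 and 0.03 in every array. By family, the ER prolyl isomerases were at -0.14 to 0.17 in control pools and 0.50 to 0.78 in resected pools, and the disulfide isomerases at -0.12 to 0.13 and 0.26 to 0.49, with no overlap in either family. The other ER families overlapped: ER HSP70 and HSP90 stood at -0.33 to 0.48 in control and 0.42 to 0.74 in resected pools, lectin chaperones at -0.17 to 0.31 and 0.21 to 0.54, and ER J proteins at -0.12 to 0.20 and 0.06 to 0.16. In each of these control replicate 2 was the highest control pool.

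**Figure D4:**
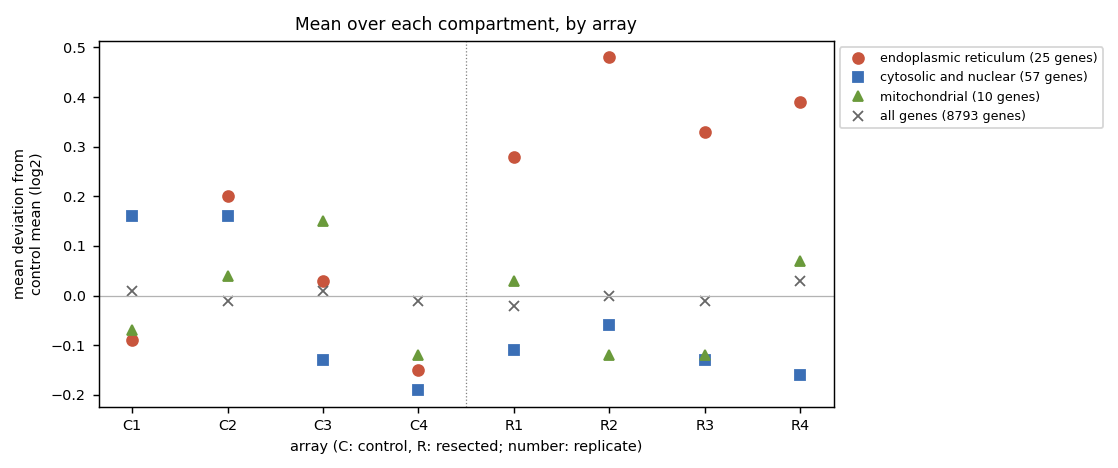
Mean over the genes of each compartment (y axis, log2 difference from the control mean of each gene) in every array (x axis; C control, R resected). The ER means of resected pools, 0.28 to 0.48, lie above all control means, of which control replicate 2 is the highest at 0.20, and the cytosolic means of resected pools lie between -0.16 and -0.06.

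Other measurements also differed between the groups. Markers of matrix-producing fibroblasts, cells that secrete collagen, were higher for 7 of 7 measured, where 5.05% of all genes were called higher. The log2 of their summed level was 11.15 to 11.62 in control and 13.41 to 13.57 in resected pools. Control replicate 2, the highest control pool over the ER genes, was the lowest here at 11.15. Macrophage markers were higher for 3 of 10, and for 9 without control replicate 2, whose summed level of 13.63 stood above 12.86 to 13.09 in the other controls and within 13.34 to 13.91 of the resected pools. Dividing cell markers were higher for 6 of 11 (10.13 to 10.53 against 10.82 to 11.41) and erythrocyte markers for 7 of 8 (13.18 to 13.24 against 14.11 to 14.57). Fast skeletal muscle markers were higher for 9 of 14, with a median change of 1.01 over the 14. The 3' less 5' difference of control probe sets, often read for RNA quality, was negative in every pool for the actin gene acta1. It was -2.30 to -1.98 in control and -1.74 to -1.46 in resected pools, without overlap. That of GAPDH overlapped (0.77 to 1.07 and 0.80 to 1.05). The part of these measures in the change of the chaperone genes was not tested.

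The largest change of all members was a decrease in a cytosolic co-chaperone. The gene ahsa1a encodes an activator of the HSP90 ATPase. Its level was 8.78, 8.85, 8.55 and 8.63 in control pools and 7.39, 7.44, 7.27 and 7.65 in resected pools. The groups were far apart relative to their spread. The means were 8.70 ± 0.14 and 7.44 ± 0.16 (SD, n = 4), 2.41-fold lower after resection (-1.27 ± 0.10, adjusted p = 8.21e-05, limma), and the call held under all 19 alternatives. The paralog ahsa1b read 7.98, 7.50, 6.97 and 6.95 in control pools and 7.32, 7.43, 7.62 and 6.90 in resected pools. These groups overlapped throughout (-0.03 ± 0.23, adjusted p = 0.949). The changes of the 2 paralogs differed by -1.24 ± 0.30, at the smallest p that an exact two-sided permutation test of 4 against 4 can give (p = 0.0286). That is an adjusted p = 0.22 over the 18 pairs of paralogs or counterparts compared by the exact permutation test, which were chosen after their values were seen. At least 11 of the 18 would have had to reach that smallest p for any to pass after adjustment, so the adjusted values say little.

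The other 6 HSP90 co-chaperones did not pass. The muscle-specific unc45b, which folds myosin together with HSP90, was at -0.25 ± 0.16 (adjusted p = 0.373), and among its control pools replicates 2 and 3 were high at 10.05 and 10.15 beside 9.52 and 9.48. The isomerases of HSP90 complexes were near 0, with fkbp4 at 0.07 ± 0.10 and ppid at -0.12 ± 0.09, as were fkbpl at 0.02 ± 0.07 and dnajc7 at -0.18 ± 0.10. Of HSP90 itself, the constitutive gene hsp90ab1 was at 12.81 ± 0.05 in control and 12.80 ± 0.05 in resected pools (-0.01 ± 0.07, adjusted p = 0.927, limma). The change of its ER counterpart hsp90b1 was larger by 0.60 ± 0.22 (exact permutation p = 0.0571, adjusted p = 0.22).

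The form needed for myosin folding in zebrafish muscle, hsp90aa1.1, read 10.56, 12.25, 10.69 and 10.30 in control pools and 11.70, 11.62, 11.27 and 11.40 in resected pools. All resected pools lay between control replicate 2 and the other 3 controls. Its change of 0.55 ± 0.35 did not pass (adjusted p = 0.38, limma), and without control replicate 2 it was 0.98 (adjusted p = 0.00206). The neighbouring paralog hsp90aa1.2 read 9.47, 8.41, 8.59 and 8.52 in control and 8.51, 8.82, 9.04 and 7.75 in resected pools. There control replicate 1 and not 2 was high, and the change was -0.22 ± 0.29 (adjusted p = 0.687). Array probes can bind close paralogs, so the copy measured within the HSP90 and HSP70 families is uncertain.

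Of 10 cytosolic HSP70 and HSP110 genes 0 passed by limma. The unadjusted p alone gave 0 higher and 1 lower, or 10% lower against 12.7% of all genes. The constitutive hspa8 read 12.49, 12.78, 12.21 and 12.28 in control pools and 12.64, 12.80, 12.64 and 12.71 in resected pools. Control replicate 2 fell within the resected range. The change was 0.26 ± 0.12 (adjusted p = 0.236, and 0.37 with an adjusted p = 0.0398 without that pool). A gene still carrying the name hsc70 was at -0.35 ± 0.14 (adjusted p = 0.168, and -0.46 with an adjusted p = 0.0352 without control replicate 2). HSP110 proteins exchange the nucleotide of HSP70, and their genes hspa4a and hspa4b were at 0.25 ± 0.36 and 0.12 ± 0.09, with hspa4l at -0.07 ± 0.10, while hspa12a and hspa14 were at -0.13 ± 0.12 and 0.09 ± 0.15. The co-chaperone genes bag2, bag4, bag5, bag6 and hspbp1 were between -0.06 and 0.27.

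A few HSP70 genes, stress-inducible forms among them, differed more between pools of a group than between groups. For hspa1b, control pools read 7.45, 9.49, 6.0 and 6.39 and resected pools 6.90, 6.99, 6.92 and 6.39. Control replicate 2 was high by itself (-0.54 ± 0.61, adjusted p = 0.636). The probe set of hspa8b read 5.56, 8.71, 4.99 and 5.29 in control pools and 5.28, 5.44, 5.22 and 5.93 in resected pools, with the same pool high (-0.67 ± 0.67, adjusted p = 0.588). For hsp70.3, whose probe set is of a kind that can bind several related transcripts, control pools read 9.92, 10.31, 8.29 and 8.11 and resected pools 8.17, 9.10, 9.10 and 6.93. Control replicates 1 and 2 were high and resected replicate 4 was low (-0.83 ± 0.58, adjusted p = 0.425).

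For these 3 genes the pooled SD within groups was 1.07 to 1.25, the 99.9th percentile of all genes. In all, 18 of the 93 members, or 19.4%, were at or above the 90th percentile of genes in this spread: 10 cytosolic, 5 ER, 2 mitochondrial and tcp11l2. Besides the 3, the cytosolic members were hspa4a, hsp90aa1.1, hspb8, hsp90aa1.2, dnajb1b, ahsa1b and dnajc21. Among these 10, the highest control pool was replicate 1 for 5 genes and replicate 2 for the other 5. The lowest resected pool was replicate 4 for 7 of them. The labels name no batch by which these pools could be divided.

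**Figure D5:**
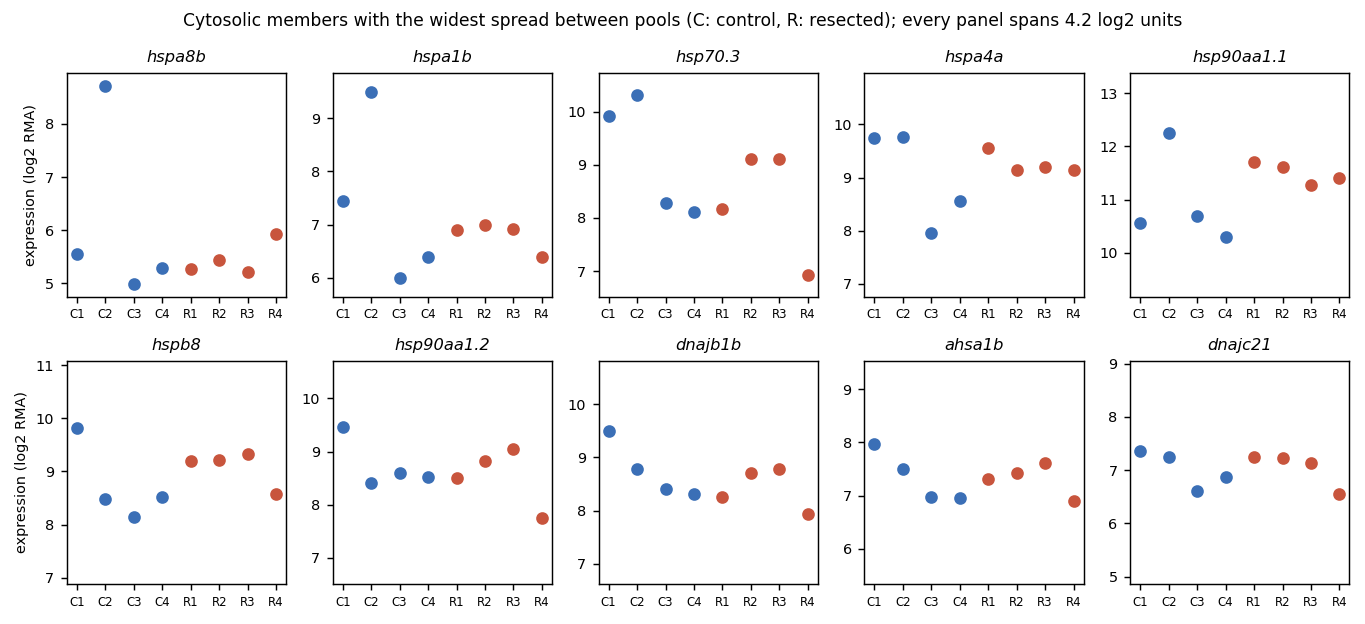
Expression (log2 RMA, y axis) of the 10 cytosolic members with the widest spread within groups, in each control (C) and resected (R) pool; every panel spans 4.2 log2 units. Control replicate 2 stands apart for hspa8b (8.71) and hspa1b (9.49), control replicate 1 is high for hspb8, and resected replicate 4 is low for hsp70.3 (6.93).

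Small heat shock proteins hold damaged proteins and bind the filaments of muscle. The gene hspb1 lay within 12.35 to 12.49 in all pools (-0.01 ± 0.07, adjusted p = 0.959, limma). For hspb6, abundant in heart and smooth muscle of mammals, control pools read 11.69, 11.34, 10.95 and 11.45 and resected pools 10.96, 10.90, 10.68 and 10.82. Control replicate 3 lay within the resected range, and the change was -0.52 ± 0.14 (adjusted p = 0.0591, and -0.65 with an adjusted p = 0.0111 without that pool). The gene hspb8, a partner of the muscle protein Bag3, was at 0.33 ± 0.32, with 9.82 in control replicate 1 beside 8.15 to 8.53 in the other controls.

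TRiC is built of 8 different subunits, all of them measured, and 1 fell and 0 rose. That is 12.5% lower against 3.0% of all genes. The subunit gene cct8 read 11.30, 11.21, 11.14 and 11.07 in control pools and 10.90, 10.83, 10.66 and 10.79 in resected pools. The groups were apart, and cct8 was 1.31-fold lower (-0.39 ± 0.09, adjusted p = 0.0253, limma). That call needed control pool 1 and resected pools 2, 3 and 4, and without any of these the adjusted p was 0.0526 to 0.08. The other 7 did not pass. Their genes were at -0.30 ± 0.12 (cct4), -0.19 ± 0.12 (cct2), -0.19 ± 0.12 (cct6a), -0.15 ± 0.10 (tcp1), -0.14 ± 0.10 (cct3), -0.09 ± 0.10 (cct5) and -0.05 ± 0.10 (cct7). The other cct2 probe set was at -0.28 ± 0.08 with its groups apart (adjusted p = 0.0637, limma). Thus 0 of 8 changes were above 0, with a median of -0.17, where 41.2% of changes over all genes were above 0. The 0 of 8 held under further quantile normalization and median centring, whereas 1 was at 0.01 without control replicate 2 or without resected replicate 3. Control replicates 1 and 2 averaged 0.15 and 0.14 over the 8 genes and control replicates 3 and 4 averaged -0.10 and -0.19, beside -0.28 to -0.09 in resected pools.

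Among the 14 J proteins of the cytosol and nucleus 0 passed by limma, and the unadjusted p alone gave 0 higher and 3 lower, or 21.4% against 12.7% of all genes. The paralogs dnaja2b and dnaja2a had the smallest p, with dnaja2b at -0.52 ± 0.16 (adjusted p = 0.0808, and 0.0475 after further quantile normalization) and dnaja2a at -0.24 ± 0.09 (adjusted p = 0.152). In dnaja2a and dnajc24 (-0.20 ± 0.09, adjusted p = 0.23) all resected pools lay below the controls, as they did for 7.93% of all genes, and 7.74% of genes had them all above. The level of dnajc24 was low, at 3.70 to 4.18 beside array medians of 5.78 to 5.82. Together with ahsa1a, cct8 and fkbp3, dnaja2a and dnajc24 were the 5 cytosolic genes with such a separation, and 0 were separated in the other direction. In the ER 7 genes were separated upward and 0 downward. The muscle co-chaperone paralogs dnajb6a and dnajb6b, whose human counterpart is mutated in a limb-girdle muscle dystrophy, were at -0.21 ± 0.09 and -0.20 ± 0.10. The HSP70 partners dnajb1a and dnajb1b were at -0.01 ± 0.15 and -0.33 ± 0.26. The remaining genes of this family (dnaja1, dnajc5ga, dnajc5gb, dnajc9, dnajc12, dnajc17 and dnajc21) were between -0.23 and 0.06.

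Prolyl isomerases outside the ER included a nuclear gene that fell. The product of fkbp3, FKBP25, binds nucleic acids. Its gene read 11.56, 11.32, 11.29 and 11.22 in control pools and 11.03, 10.76, 10.88 and 10.85 in resected pools. All resected pools lay below the controls, 1.38-fold lower on average (-0.47 ± 0.10, adjusted p = 0.0182, limma), and the call ended without resected replicate 2 or 3 (adjusted p = 0.0627 and 0.0534). The proteins encoded by fkbp1b and fkbp1aa bind the calcium release channel of muscle in mammals, and these genes were at -0.21 ± 0.11 (adjusted p = 0.29) and 0.08 ± 0.10 (adjusted p = 0.671). Without control replicate 2, fkbp1b was at -0.32 (adjusted p = 0.0477). The cyclophilin A genes ppiaa and ppiab were at 0.08 ± 0.08 and 0.10 ± 0.08. The other ppiaa probe set, with a wide spread between pools, was at -0.62 ± 0.39 (adjusted p = 0.364, limma). By the probe set that stands for ppiaa, the change of its ER relative ppib was larger by 0.39 ± 0.08 (exact permutation p = 0.0286, adjusted p = 0.22). For other counterparts, hspa5 exceeded hspa8 by 0.32 ± 0.28 (exact permutation p = 0.314, adjusted p = 0.404). The change of fkbp2 exceeded that of fkbp1aa by 0.43 ± 0.18, and that of dnajb11 exceeded dnajb1b by 0.89 ± 0.34 (exact permutation p = 0.0857, adjusted p = 0.22, each). The splicing-associated isomerases ppig and ppih were at 0.17 ± 0.10 and -0.04 ± 0.09.

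Mitochondrial members went both ways. The gene dnajc19 encodes the J protein of the motor that pulls proteins into the matrix, and its loss in humans causes a dilated cardiomyopathy. It read 8.67, 8.26, 8.61 and 8.41 in control pools and 7.78, 7.70, 7.57 and 7.96 in resected pools. The groups were apart and the decrease was 1.67-fold (-0.74 ± 0.12, adjusted p = 0.00467, limma), a call that no left-out array ended. For dnajc30b, whose mammalian counterpart is a mitochondrial J protein of the respiratory chain, control pools read 6.84, 6.54, 7.01 and 6.93 and resected pools 6.19, 6.10, 6.21 and 6.56. Resected replicate 4 just reached control replicate 2. It fell by 0.56 ± 0.13 on the log2 scale (adjusted p = 0.0277, limma), but not when control pool 1, 3 or 4, or resected pool 1, 2 or 3, was left out (adjusted p = 0.0562 to 0.0901).

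The matrix J protein gene dnaja3a rose, from 8.05, 7.91, 7.67 and 7.81 in control pools to 8.35, 8.28, 8.38 and 8.20 in resected pools. No value overlapped, and the rise was 0.44 ± 0.10, or 1.36-fold (adjusted p = 0.0231, limma). Each of control pools 3 and 4 and resected pools 1, 2 and 3 was needed for this call (adjusted p = 0.0515 to 0.0741 without them). The chaperonin gene hspd1 was at 10.07 to 10.20 in resected pools and at 9.45, 10.14, 9.27 and 9.08 in control pools. Control replicate 2 was again the pool within the resected range, with a change of 0.65 ± 0.19 (adjusted p = 0.0682) that was 0.87 without it (adjusted p = 0.00122). Its lid hspe1 was at 0.20 ± 0.12, the mitochondrial HSP70 hspa9 at 0.04 ± 0.12 and cyclophilin D, ppifa, at -0.32 ± 0.18 (adjusted p = 0.347, 0.86 and 0.322). The remaining J protein genes dnajc11a, dnaja3b and dnajc4 were at -0.25 ± 0.09 (adjusted p = 0.143), 0.11 ± 0.15 and 0.07 ± 0.13. Of the member that is no chaperone, tcp11l2, the change was -0.61 ± 0.23 (adjusted p = 0.149, and -0.84 with an adjusted p = 0.0233 without resected replicate 4).

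Genes outside the naming rule were listed by pathway, and the collagen list also holds secreted proteins such as sparc and loxl2b. Of 25 measured genes of the ER stress response and quality control, 1 rose and 0 fell (median 0.15), and by the unadjusted p 8 were higher and 0 lower. The 4% called higher is near the 5.05% of all genes, and by the unadjusted p the share was 32% against 12.7%. The gene that rose, ero1a, encodes the oxidase that recharges disulfide isomerases. It read 6.32, 7.39, 5.76 and 5.83 in control pools and 8.16, 7.66, 8.05 and 8.59 in resected pools. The groups were apart, with a rise of 1.79 ± 0.33, or 3.46-fold (adjusted p = 0.0101, limma). Named after their values were seen, the stress transcription factor xbp1 was at 0.45 ± 0.15 (adjusted p = 0.115), the secreted factor manf at 0.57 ± 0.17 (adjusted p = 0.0774) and the cargo receptor lman1 at 0.53 ± 0.14 (adjusted p = 0.0504). Of the 25 changes 16 were above 0, or 64% against 41.2% of all genes. The lowest, likewise named after its value was seen, was that of herpud1 at -0.24 ± 0.15 (adjusted p = 0.358, limma). Without control replicate 2, 3 genes of this list rose, or 12%, where 7.37% of all genes did.

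Of 14 measured genes of collagen folding and processing, 7 rose and 0 fell (median 0.46), or 50% higher against 5.05% of all genes. The lysyl oxidase relative loxl2b rose by 1.54 ± 0.09 and the lysyl hydroxylase plod1a by 1.52 ± 0.18, and the collagen-binding matrix protein sparc rose by 1.43 ± 0.11 (adjusted p = 6.95e-06, 0.000922 and 3.92e-05, limma). The collagen chaperone HSP47, serpinh1b, read 4.93, 4.96, 5.22 and 5.0 in control pools and 5.62, 7.05, 6.85 and 5.62 in resected pools. Every resected pool was above the controls, but resected replicates 2 and 3 far more so than the other two. It rose by 1.26 ± 0.31 (adjusted p = 0.0356), a call lost on leaving out control pool 1, 3 or 4, or resected pool 2 or 3 (adjusted p = 0.0582 to 0.0982), and also with a robust prior, array weights or no moderation (adjusted p = 0.0699, 0.0631 and 0.162). The remaining risers, named after their values were seen, were the prolyl hydroxylase p4ha1b (1.25 ± 0.21), the ER retention receptor kdelr2b (0.44 ± 0.10) and the lysyl hydroxylase plod3 (0.38 ± 0.08). Leaving out control pool 1 or 4, or resected pool 2, 3 or 4, ended the call of kdelr2b (adjusted p = 0.0513 to 0.079). Leaving out resected pool 2 ended that of plod3 (adjusted p = 0.0546). The other 7 did not pass. Among them, also named after their values were seen, crtap was at 0.08 ± 0.11 and p3h4 at -0.01 ± 0.07 (adjusted p = 0.695 and 0.938, limma).

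Of 39 measured heat shock factors and further chaperones, mostly cytosolic, 2 rose and 2 fell (median 0.01), or 5.13% each way against 5.05% and 3.0% of all genes. The heat shock factor binding protein gene hsbp1a read 4.78, 5.13, 5.04 and 5.03 in control pools and 5.90, 6.06, 5.88 and 6.09 in resected pools. It was apart between the groups and rose by 0.99 ± 0.10, or 1.98-fold (adjusted p = 0.000275, limma). Its paralog hsbp1b rose by 0.34 ± 0.08 (adjusted p = 0.0301), but not with control pool 4 or a resected pool left out (adjusted p = 0.0571 to 0.0885). The tubulin folding cofactor tbcc fell (-0.41 ± 0.09, adjusted p = 0.0225), as did the HSP90 partner nudcd3 (-0.34 ± 0.09, adjusted p = 0.0457). The call of tbcc was lost when control pool 1 or 3, or resected pool 1, 2 or 3, was left out (adjusted p = 0.0513 to 0.0691). That of nudcd3 was lost when control pool 1, 3 or 4, or resected pool 1, 2 or 3, was left out (adjusted p = 0.061 to 0.132). With the replicate number as a block the calls of hsbp1b, tbcc and nudcd3 were also lost (adjusted p = 0.081, 0.0575 and 0.0636). The gene of the main heat shock factor, hsf1, was at -0.60 ± 0.18 (adjusted p = 0.0728) and was named after its value was seen. Without control replicate 2 this list held 4 higher and 3 lower genes, or 10.3% and 7.69% where 7.37% and 4.95% of all genes were called.

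As for the whole array, 444 genes were higher and 264 lower, and array medians lay between 5.78 and 5.82. Heart muscle markers, which define the labelled tissue, had a log2 summed level of 16.17 to 16.30 in control and 16.09 to 16.22 in resected pools over 7 genes, 1 of which rose. Fast skeletal muscle markers were higher for 9 of 14 (13.42 to 13.86 against 13.60 to 13.77). The largest term of that sum, ckma, was at 13.28 in control and 13.33 in resected pools on average. The 9 that rose did so by 0.49 ± 0.13 (tnni2b.1) to 2.32 ± 0.17 (pvalb2), and 5 did not pass, ckma among them. These genes were named after their values were seen. Endothelial markers were higher for 1 of 5 and lower for 0 (10.30 to 10.77 against 10.13 to 10.44). Only 2 of the 5 changes were above 0, with a median of -0.08, and without control replicate 2 the calls were 1 higher and 1 lower. Both means of the riser, cldn5a, lay below every array median (control 3.48, resected 3.90). Of those that did not pass, kdrl changed by -0.41 ± 0.15 and plvapb by 0.41 ± 0.16. These 3 endothelial genes were likewise named after their values were seen. Exocrine pancreas markers were lower for 1 of 14 (10.43 to 11.02 against 10.04 to 10.16). The gene that fell, ctrb.1, was the largest term of that sum, at 9.87 in control and 8.55 in resected pools on average. It was named after its value was seen. The median change of the 14 was -0.05.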

How the data were processed

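Expression was measured in 8 samples of zebrafish ventricle, 4 control and 4 resected. The authors deposited log2 values, made with affy and RMA per the submitters' processing notes, which give no versions. RMA corrects background, applies quantile normalization and summarises probes, and it gives no detection call. Members such as fkbpl, pdia2 and ppih had control means of 2.86, 3.03 and 3.11, below array medians of 5.78 to 5.82. Whether such genes were expressed is not known. The array number limits the precision, and limma p-values weigh each change against the spread between pools, moderated across probe sets. Of 15617 probe sets, 115 control probe sets were left out. Symbols came from the platform annotation. Entrez identifiers of all 107 member probe sets matched a gene table of the GRCz12tu assembly. No coordinates or sequences are given. Where a gene had several probe sets, as 13 members did, the one highest on average stood for it.

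The test was limma 3.58.1 (R 4.3.3), two-sided and with no replicate term, and Benjamini-Hochberg adjustment covered the 15502 probe sets kept. It was checked on simulated data with noise independent between probe sets. That check cannot show the effect of deviations shared by many genes of a pool. For pairs of genes the difference of their changes was put to an exact permutation test, two-sided. Members, compartments, pathway and marker lists were chosen with earlier results of these data known. The gene fkbpl was not in the first class lists and was added later by textbook knowledge. Every member may be named. Values in every array were to be given for members past the threshold without overlap, and from each pathway list up to 4 genes past the threshold with the largest change were to be named. Those of further genes were chosen after their values were seen. Alternatives were a replicate block, trend or robust variance priors, array weights, further quantile normalization, median centring, averaging a gene's probe sets, leaving out dim probe sets or those ending in _x_at or _s_at, unmoderated variances, and each array left out.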

Additional observations from a re-analysis of the deposited data

Results flagged for a closer look

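In a group of 4 pools, the highest or lowest value was taken as far from the others where its gap to the nearest of them exceeded Dixon's 95% critical value, as a share of the group's range. This was so in 14 of 186 groups of member genes, where chance gives about 1 in 20 for independent, normally distributed values. The groups came from the same 8 arrays, and the share over all genes was not counted. Of the 14, 4 concerned control replicate 2 and as many concerned resected replicate 4.

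In control replicate 2, hspa8b was high at 8.71 (4.99 to 5.56 in the other controls), hyou1 high at 8.41 (7.55 to 7.67), canx high at 10.23 (9.58 to 9.61) and bag5 low at 4.64 (4.76 to 4.77). In resected replicate 4, bag6 was high at 8.27 (7.88 to 7.93) and dnajc5ga high at 7.72 (7.47 in each of the other pools), while hspa1b was low at 6.39 (6.90 to 6.99) and dnajc21 low at 6.56 (7.14 to 7.24). Resected replicate 2 was low for dnajc5gb at 5.66 (5.83 to 5.84) and high for dnajc9 at 7.15 (6.88 to 6.90) and pdia3 at 9.09 (8.71 to 8.77). Resected replicate 1 was high for hspa4a at 9.56 (9.14 to 9.19) and for bag5 at 4.83 (4.61 to 4.64), and resected replicate 3 was low for ppid at 7.86 (8.08 to 8.11).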

How the results depend on the processing

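Over 19 alternative settings the calls of ahsa1a, fkbp10b and fkbp9 held, those of ppib and dnajc19 ended only without moderation of the variance (adjusted p = 0.0525 and 0.0522, limma), and no ER gene was called lower. Without moderation 2 members were higher and 1 lower, with 2 ER genes higher and 1 cytosolic gene lower, and over the whole array 146 genes were higher and 55 lower in place of 444 and 264. Leaving out each array in turn gave 3 to 17 members higher and 2 to 7 lower, 3 to 13 ER genes higher, and 0 to 2 cytosolic genes higher and 1 to 5 lower. Over the whole array the counts so obtained ran from 265 higher and 106 lower without resected replicate 2 to 648 and 435 without control replicate 2. The ER median was 0.41 to 0.51 under these settings and the cytosolic median -0.10 to -0.04. The changes of 24 members turned sign under at least 1 setting, and 0 of these were called under any.

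With the replicate number as a block 8 members were higher and 6 lower, with 6 ER genes higher and 4 cytosolic genes lower. Same-numbered pools deviated together only weakly (r = 0.12, 0.14, -0.01 and -0.16 across probe sets). Between pools of different number r ran from -0.22 to 0.30. These correlations cannot tell whether same-numbered pools were handled together, and the labels do not say. Of the member calls pdia5 (adjusted p = 0.0521) and fkbp14 (0.0893) ended with the block, and of the pathway genes hsbp1b (0.081), nudcd3 (0.0636) and tbcc (0.0575) did, while hspb6 (0.0297), calr3a (0.0337) and hspd1 (0.0454) passed with it. Without moderation 10 of the 13 member calls were lost (adjusted p = 0.0522 to 0.137), as were those of ero1a (0.0991), serpinh1b (0.162), p4ha1b (0.0774), kdelr2b (0.0854), nudcd3 (0.0887) and tbcc (0.0616). Further losses were nudcd3 with an intensity trend (0.0676), serpinh1b with a robust prior (0.0699) or array weights (0.0631), pdia4 with array weights (0.0656) and fkbp14 after further quantile normalization (0.0501). The gene calr3b passed with an intensity trend (0.0466) or a robust prior (0.0492).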
